A study of Oryza sativa with 80 samples.

Results

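The base of the rice leaf blade was compared between well-watered leaves collected at 30 °C (W30) and well-watered leaves given a heat shock of 30 min at 40 °C (W40). The 8 samples are the segment 2 libraries of these conditions, 4 of W30 and 4 of W40, chosen by their labels out of 80 samples in the series. All came from the third leaf, mature and fully elongated, of seedlings of rice, Oryza sativa, kept in soil at 3 g water per g dry soil, at 30 °C by day and 25 °C by night with a day of 12 h, and collected after 10 days of growth, 6 h into the light period. Each blade was cut into 7 segments of equal length, of which the end segments were discarded, so segment 2 is the most basal one measured and holds no blade tissue next to the collar. A replicate held matched segments of 3 leaves and is called a leaf pool. Poly(A) RNA was sequenced, and no genotype or cultivar beyond the species is named in the labels.

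The labels put W30 replicates 1 and 2 in batch 1 and replicates 3 and 4 in batch 2. Of the W40 pools, replicate 1 was in batch 1 and replicates 2, 3 and 4 were in batch 2. Batch was a term of the test, and each batch is also given alone. What the labels call a batch is not explained further in the sources used here.

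Heat unfolds proteins, and cells answer with heat stress transcription factors, which switch on genes for molecular chaperones. Small heat shock proteins hold unfolding proteins in solution, HSP70, HSP90 and HSP100 proteins refold or disaggregate them, and a separate unfolded protein response serves the endoplasmic reticulum. A grass blade matures from the tip towards the base, so the base holds the youngest tissue of the blade, with walls and plastids that were finished last.

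The files name genes by MSU locus IDs and pair them with no names, and the RefSeq gene table held 0 of the 359 listed loci. A locus is therefore described only by the list under which it was entered by hand from general knowledge, which no table used here could check, and no role is given to a single ID. Neighbouring loci of one family, such as small heat shock protein loci on the same chromosome arm, may share reads, and their values are uncertain. No source used here says whether counting used strand, so reads of overlapping antisense genes cannot be told apart.

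Totals ran from 59328179 to 105983707 counts per library. The 14 loci entered as light harvesting proteins summed to between 69600 and 127000 CPM, which are counts scaled by library size, in W30 and between 101000 and 125000 CPM in W40. The meristem homeobox locus had 0 counts in all 8 libraries, which allows up to 0.0507 CPM in the shallowest of them. The 9 cell division loci summed to 20.7 to 28.0 CPM in W30 and 15.7 to 25.8 CPM in W40, and 1 of the 2 root marker loci was at 0 throughout. The 2 root marker loci summed to 14.4 to 34.6 CPM in W30 and 20.2 to 65.8 CPM in W40. A change in CPM may come from fewer cells of a type or from less RNA per cell, which cannot be told apart in bulk tissue.

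A pair of libraries stood apart from the others of their group in chaperone counts before any test. W40 replicate 1, the only heated library of batch 1, was the lowest W40 library for 34 of the 38 chaperone loci tested. Counts of the 39 chaperone loci in the table made up 1.65% of that library and 5.30%, 5.59% and 6.22% of W40 replicates 2, 3 and 4. In W30 they made up 0.175%, 0.244%, 0.218% and 0.210% of replicates 1 to 4. W30 replicate 2 was the highest W30 library for 21 of the 38 loci. Across all counts the W30 libraries parted by batch instead. Their chi-square over its degrees of freedom was 204.7 between replicates 1 and 2 and 37.8 between replicates 3 and 4. Between batches it ran from 542.3 to 887.4. List counts that moved by over 1.5 times without W40 replicate 1 or W30 replicate 2 are given with and without it. List counts without W30 replicate 3 or 4 are not given.

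Heat changed the transcriptome of segment 2 widely. Of 20704 genes tested with edgeR, 7513 (36.3%) passed an adjusted p of 0.05, with 3905 (18.9%) higher and 3608 (17.4%) lower in W40. At least 2-fold changes were found for 1826 genes that rose and 1765 that fell, and at least 4-fold changes for 685 and 404. The W30 and W40 libraries did not overlap for 26.3% of all genes tested and for 63.8% of those called. When counts were scaled to library totals the median change of all genes moved from 0.00 to -0.23 on the log2 scale, and the calls split into 2396 higher and 5716 lower. Without W40 replicate 1 there were 9900 calls, and without W30 replicate 2 there were 8182. Without W30 replicate 3 or 4, the unheated libraries of batch 2, there were 4466 and 3934, and with no batch term 4680. Within batch 1 there were 2017 calls (9.74% of genes, with 6.49% higher and 3.25% lower) and within batch 2 there were 9824 (47.4%, with 24.8% higher and 22.6% lower). In both batches 1531 genes were called in the same direction, which is 75.9% of the batch 1 calls and 15.6% of the batch 2 calls, and 49 were called in opposite directions. The change itself differed between batches for 1967 genes (9.5%).

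Among loci on no list, the largest increases with non-overlapping groups were those of LOC_Os02g34270 and LOC_Os04g23550. LOC_Os02g34270 had 0 counts in every W30 library and 0.372, 15.3, 23.3 and 27.9 CPM in W40, at least 1910.0-fold above the limit of 3 counts over the 4 W30 libraries. LOC_Os04g23550 stood at 0.0239, 0, 0.0201 and 0.0383 CPM in W30 and 10.8, 9.87, 6.81 and 34.6 CPM in W40 (adjusted p = 0.000112). The largest decreases were those of LOC_Os08g26710, at 29.2, 42.98, 45.9 and 50.7 CPM in W30 and 4.83, 0.979, 1.12 and 0.706 CPM in W40 (log2 change -4.62, SE 0.54, adjusted p = 0.000487), and LOC_Os10g42780, at 20.5, 88.005, 24.3 and 44.6 CPM in W30 and 2.92, 2.49, 2.37 and 1.21 CPM in W40 (log2 change -4.13, SE 0.48, adjusted p = 0.000502). In these decreases every W40 library lay below every W30 library.

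**Figure D1:**
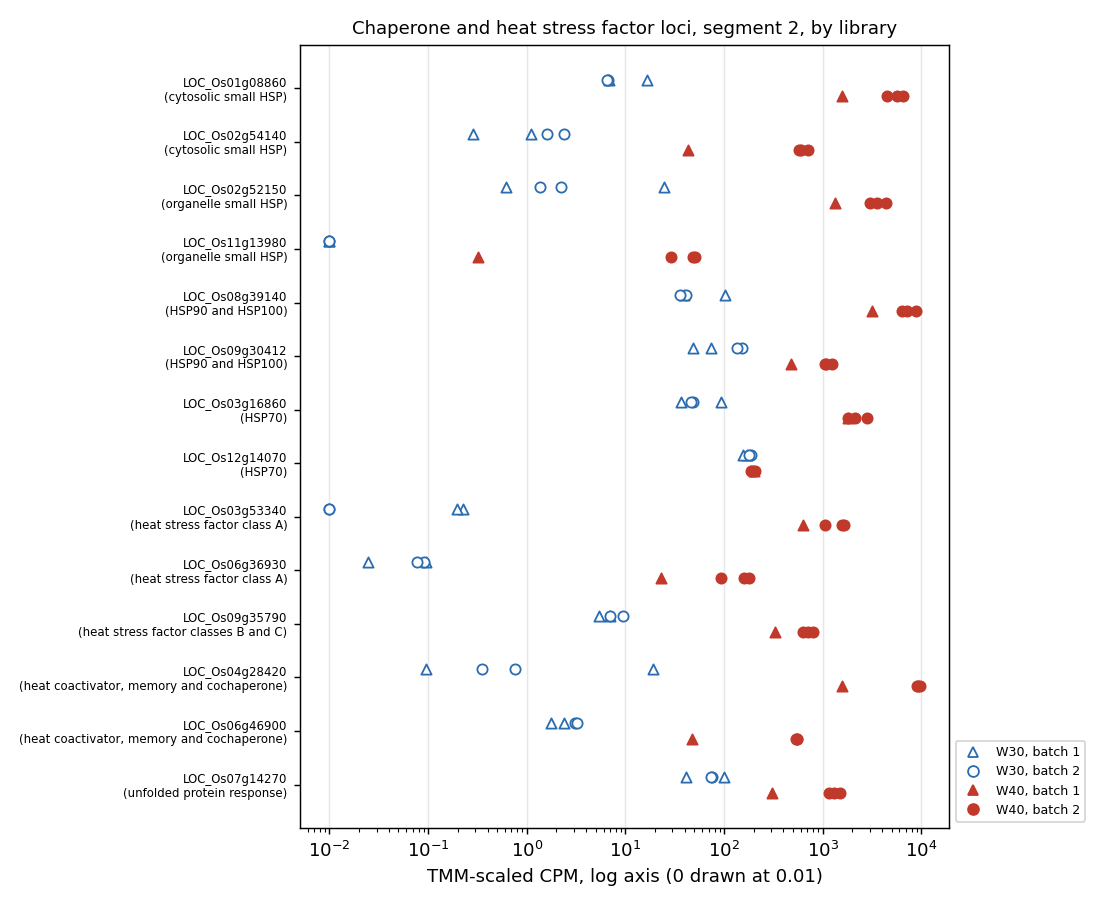
TMM-scaled CPM (x axis, log scale, 0 drawn at 0.01) of 14 chaperone, heat stress factor and related loci in each segment 2 library. Open blue points are W30, filled red points W40, triangles batch 1 and circles batch 2. W40 lies above W30 for 13 loci without overlap, where 26.3% of all genes have groups apart in either direction, the groups of LOC_Os12g14070 overlap, and the red triangle is the lowest W40 point for most loci.

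The chaperone lists rose almost as a whole. Of 38 loci tested from the 4 chaperone lists, 35 rose, 0 fell and 3 did not pass the test, against 18.9% of all genes that rose. All 10 cytosolic small heat shock protein loci tested rose, with changes of 1.72 to 11.96 and a median of 8.25 on the log2 scale, beside a median of 0.00 over all genes. Without W40 replicate 1 the same lists gave 36 that rose and 1 that fell of 39 tested, and without W30 replicate 2 they gave 36 and 0 of 38.

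Within the cytosolic small heat shock protein list, LOC_Os01g08860 stood at 6.77, 16.4, 6.72 and 6.53 CPM in W30 and 1584, 5633, 4497 and 6524 CPM in W40 (log2 change 8.89, SE 0.69, adjusted p = 7.68e-05). Its lowest W40 library, replicate 1, was far above its highest W30 library, replicate 2. LOC_Os01g04380 stood at 0.371, 0.428, 0.281 and 0.421 CPM in W30 and 34.8, 308, 298 and 308 CPM in W40 (log2 change 8.64, SE 0.69, adjusted p = 9.01e-05), and LOC_Os02g54140 at 0.287, 1.11, 2.38 and 1.59 CPM in W30 and 43.3, 576, 599 and 705 CPM in W40 (log2 change 7.56, SE 0.64, adjusted p = 0.000112). In all 3 loci W40 replicate 1 held the lowest heated level, and the groups did not overlap.

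Small heat shock proteins sent to organelles protect plastids, mitochondria and the endoplasmic reticulum. Of the 5 loci entered for them, 4 rose, beside 18.9% of all genes, and the median change was 10.72. Setting the locus with no W30 count to its bound cannot test this median, since that locus stays above the middle value. In a fit of 16 libraries, which adds the drought leaves of segment 2, 3 rose and the median was 7.22. Without W30 replicate 2 all 5 rose with a median of 14.23, and without W40 replicate 1 all 5 rose with a median of 14.67. LOC_Os02g52150 stood at 0.622, 24.7, 2.22 and 1.35 CPM in W30 and 1343, 3548, 3006 and 4427 CPM in W40 (log2 change 9.81, SE 1.53, adjusted p = 0.00182). Its W30 replicate 2 stood far above the other W30 libraries. LOC_Os06g14240 showed no such library, at 3.53, 6.05, 7.78 and 4.52 CPM in W30 and 451, 1513, 1164 and 1915 CPM in W40 (log2 change 7.48, SE 0.45, adjusted p = 2.5e-05). LOC_Os11g13980 had 0 counts in all W30 libraries and 0.321, 28.7, 48.5 and 51.1 CPM in W40, at least 3680.0-fold above the limit of 3 counts over the W30 libraries. LOC_Os04g36750 was at 0.0239, 1.101, 0 and 0 CPM in W30 and 2.54, 433, 588 and 674 CPM in W40 (log2 change 10.82, SE 3.13, adjusted p = 0.0251), a call lost without W30 replicate 3 (adjusted p = 0.157) or 4 (0.174), and LOC_Os03g14180 at 0, 3.44, 0.0402 and 0 CPM in W30 and 2.4001, 487, 799 and 573 CPM in W40, with an adjusted p of 0.0602. For LOC_Os03g14180 W40 replicate 1 lay within the W30 range, and the locus passed the test without W40 replicate 1 or without W30 replicate 2.

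HSP90 proteins hold client proteins such as kinases and receptors in an active shape, and HSP100 proteins pull aggregates apart. All 11 HSP90 and HSP100 loci tested rose, by 2.31 to 14.06 and a median of 4.18, where 18.9% of all genes rose. The upper end depended on the fit, with a highest change of 8.07 in the fit of 16 libraries and 18.39 without W30 replicate 2. LOC_Os08g39140 stood at 39.1, 103, 41.6 and 35.7 CPM in W30 and 3163, 7230.1, 6415 and 8882 CPM in W40 (log2 change 6.92, SE 0.58, adjusted p = 0.000109). LOC_Os12g32986 went from 46.2, 74.2, 45.7 and 46.9 CPM to 361, 680.1, 741 and 739 CPM (log2 change 3.495, SE 0.31, adjusted p = 0.000139), and LOC_Os08g38086 from 40.4, 45.05, 46.9 and 47.1 CPM to 170.1, 241, 286 and 262 CPM (log2 change 2.31, SE 0.15, adjusted p = 3.84e-05). LOC_Os09g30412, at 48.5, 73.9, 152 and 137 CPM in W30 and 480.4, 1077, 1054 and 1232 CPM in W40 (log2 change 2.96, SE 0.18, adjusted p = 2.76e-05), had W30 levels that parted by batch. Its change was 2.97 in batch 1 and 2.96 in batch 2.

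HSP70 proteins bind exposed hydrophobic stretches as proteins fold or cross membranes. Of 12 HSP70 loci, 10 rose and 2 did not pass the test (10 rose and 1 fell without W40 replicate 1), with a median of 2.56. Among all genes 18.9% rose. LOC_Os05g38530 stood at 4.99, 12.1, 13.5 and 10.7 CPM in W30 and 781, 2392, 1949.8 and 2917 CPM in W40 (log2 change 7.26, SE 0.43, adjusted p = 2.5e-05) and LOC_Os03g16860 at 36.8, 93.8, 47.9 and 46.01 CPM in W30 and 1793, 2117, 1819 and 2820.4 CPM in W40 (log2 change 5.305, SE 0.38, adjusted p = 5.37e-05). LOC_Os11g47760 had a high level at 30 °C already, at 143, 244, 386 and 386 CPM in W30 and 739, 1704, 1733 and 1731 CPM in W40 (log2 change 2.08, SE 0.2002, adjusted p = 0.000198). The loci that did not pass were LOC_Os12g14070, at 171, 156, 189 and 179 CPM in W30 and 201, 189, 206 and 194 CPM in W40 (adjusted p = 0.307), and LOC_Os12g38180, at 31.5, 56.4, 111 and 66.9 CPM in W30 and 133, 45.1, 27.4 and 48.7 CPM in W40 (adjusted p = 0.86). In LOC_Os12g38180 W40 replicate 1 was the highest library of all, and the other W40 libraries lay below W30 replicates 2, 3 and 4. Its change was 1.59 in batch 1 and -1.14 in batch 2, and these differed (adjusted p = 0.0193). Without W40 replicate 1 it was called lower (log2 change -1.14, adjusted p = 0.0164). The batch 1 value has 1 heated library, which the fit to 8 libraries assumes to vary like the others.

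The list of heat coactivators, heat memory genes and cochaperones rose in full, 4 of 4, with a median of 7.83, where 18.9% of all genes rose. LOC_Os04g28420 stood at 0.0957, 19.002, 0.351 and 0.753 CPM in W30 and 1571, 9179, 8961 and 9643 CPM in W40 (log2 change 12.499, SE 2.31, adjusted p = 0.00384), with W30 replicate 2 far above the other W30 libraries. LOC_Os06g46900 went from 2.37, 1.75, 3.08 and 3.203 CPM to 47.04, 535, 551 and 549 CPM (log2 change 6.54, SE 0.61, adjusted p = 0.000169). Changes of LOC_Os06g46900 were 4.51 in batch 1 and 7.44 in batch 2 (adjusted p of the difference 0.00299). LOC_Os06g39240 stood at 0.0837, 1.198, 0.261 and 0.204 CPM in W30 and 44.5, 367, 209 and 592 CPM in W40 (log2 change 9.13, SE 1.24, adjusted p = 0.000956) and LOC_Os02g43020 at 15.3, 21.8, 18.6 and 17.9 CPM in W30 and 213, 469, 508 and 560.2 CPM in W40 (log2 change 4.37, SE 0.295, adjusted p = 4.27e-05).

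Heat stress transcription factors bind the promoters of chaperone genes. Class A members activate, and class B members lack the activation motif. Of 22 heat stress factor loci tested, 14 rose, 4 fell and 4 did not pass, where 18.9% of all genes rose and 17.4% fell. The decreases are thus close to the share of all genes. The 13 of class A gave 9 that rose and 2 that fell, with a median of 1.25, and the 9 of classes B and C gave 5 and 2, with a median of 1.78. LOC_Os03g53340 was nearly silent at 30 °C, at 0.227, 0.196, 0 and 0 CPM, and reached 626, 1055, 1646 and 1563 CPM in W40 (adjusted p = 6.6e-05). LOC_Os06g36930 stood at 0.0957, 0.0245, 0.0904 and 0.0766 CPM in W30 and 22.95, 93.9, 178 and 159 CPM in W40 (log2 change 10.03, SE 0.498, adjusted p = 1.27e-05). LOC_Os10g28340 started from a level that parted by batch, at 20.9, 19.9, 6.29 and 5.98 CPM in W30 and 390.2, 406, 423 and 553 CPM in W40 (log2 change 5.58, SE 0.42, adjusted p = 6.9e-05). LOC_Os03g06630 stood at 28.5, 42.8, 124 and 107 CPM in W30 and 149.9, 539.5, 389 and 678 CPM in W40 (log2 change 2.16, SE 0.22, adjusted p = 0.000249). LOC_Os02g29340 was at 14.05, 11.8, 13.7 and 13.5 CPM in W30 and 14.4, 14.5, 17.6 and 17.7 CPM in W40 and did not pass the test (adjusted p = 0.172), although its groups did not overlap.

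Among classes B and C, LOC_Os09g35790 stood at 5.44, 6.97, 9.52 and 7.02 CPM in W30 and 327, 715, 636 and 789 CPM in W40 (log2 change 6.18, SE 0.24, adjusted p = 4.95e-06). LOC_Os04g48030 stood at 0.4902, 0.4402, 0.914 and 0.561 CPM in W30 and 4.41, 24.3, 18.5 and 36.4 CPM in W40 (log2 change 4.52, SE 0.45, adjusted p = 0.000221), and LOC_Os08g43334 at 5.26, 4.63, 0.331 and 0.434 CPM in W30 and 26.6, 129, 71.6 and 188 CPM in W40 (log2 change 6.703, SE 1.35, adjusted p = 0.00569). LOC_Os08g43334 changed by 2.43 in batch 1 and by 8.41 in batch 2 (adjusted p of the difference 0.00516). LOC_Os01g53220 fell, at 33.04, 25.96, 1.56 and 1.61 CPM in W30 and 10.97, 0.381, 0.767 and 0.2396 CPM in W40 (log2 change -1.63, SE 0.295, adjusted p = 0.00363). Its groups overlapped across batches, batch 1 libraries were higher in both conditions, and within each batch W40 lay below W30.

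The unfolded protein response raises chaperones and degradation factors of the endoplasmic reticulum. All 12 loci entered for it rose, by 1.12 to 4.94 and a median of 3.18, where 18.9% of all genes rose. LOC_Os07g14270 stood at 40.96, 101, 74.9 and 72.998 CPM in W30 and 307, 1148, 1304 and 1500.0 CPM in W40 (log2 change 3.495, SE 0.49, adjusted p = 0.00106), LOC_Os07g44950 at 7.497, 7.58, 6.61 and 6.84 CPM in W30 and 24.5, 88.6, 86.2 and 119.7 CPM in W40 (log2 change 3.17, SE 0.42, adjusted p = 0.00089), and LOC_Os03g52340 at 5.36, 8.25, 7.47 and 7.89 CPM in W30 and 36.9, 76.3, 102 and 99.5 CPM in W40 (log2 change 3.199, SE 0.27, adjusted p = 0.000118). Chaperonins fold proteins inside chloroplasts and mitochondria, and all 4 loci entered for them rose, with a median of 2.89, beside the same 18.9%. LOC_Os10g32550 went from 5.67, 24.3, 15.1 and 14.5 CPM to 252, 688, 779 and 843 CPM (log2 change 5.16, SE 0.55, adjusted p = 0.000304). LOC_Os06g02380 stood at 379, 253, 375 and 336 CPM in W30 and 945, 2191, 2786 and 2288 CPM in W40 (log2 change 2.36, SE 0.29, adjusted p = 0.000585), and LOC_Os12g17910 at 291, 178, 215 and 226 CPM in W30 and 408, 642, 804 and 706 CPM in W40 (log2 change 1.39, SE 0.25, adjusted p = 0.00322).

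**Figure D2:**
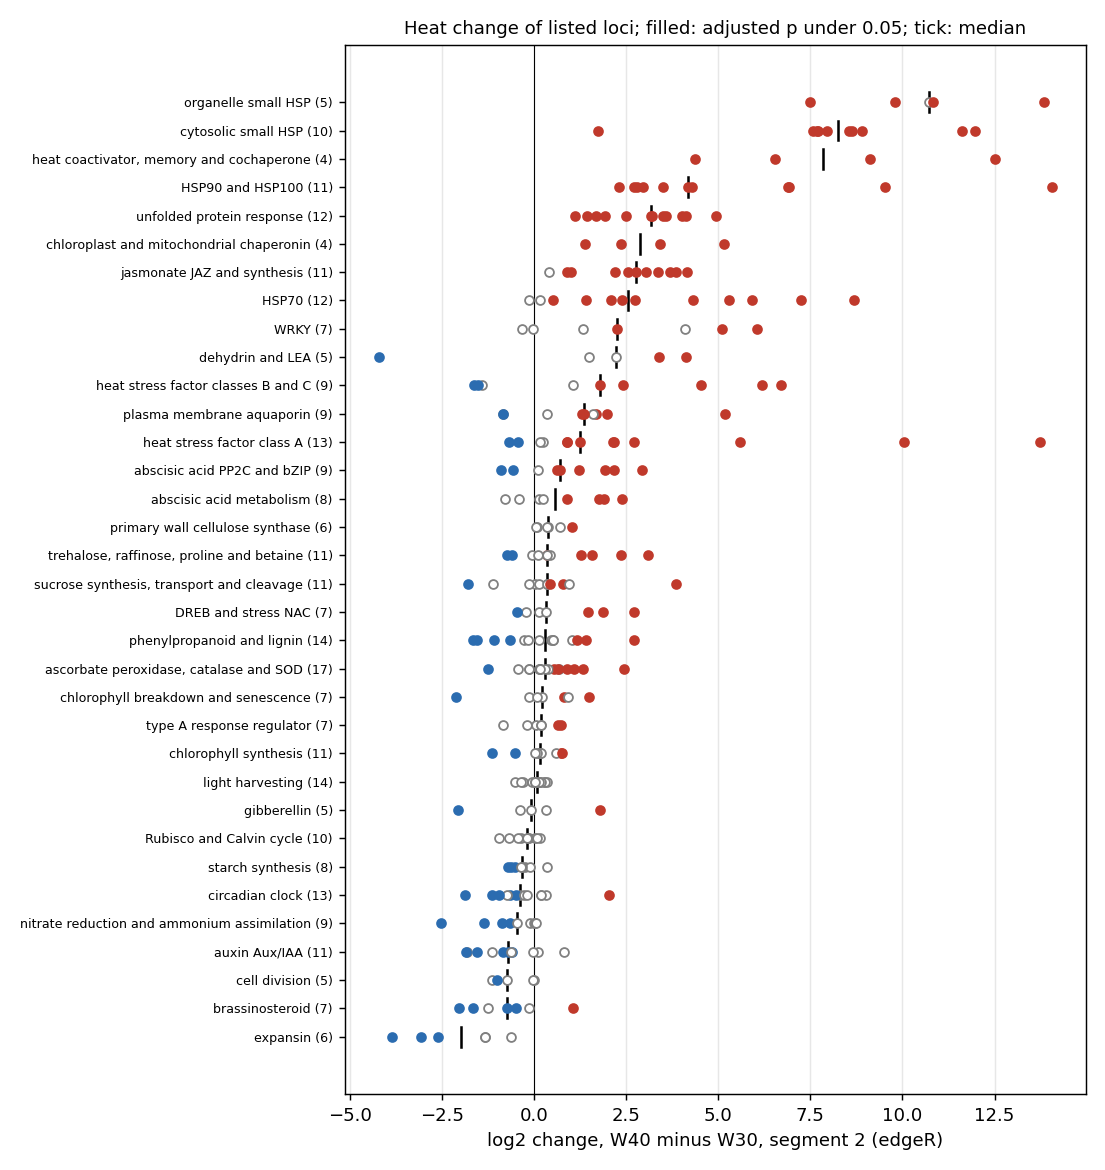
log2 change from W30 to W40 in segment 2 (x axis) of every tested locus of the lists with at least 4 tested members (y axis, members in parentheses). Red and blue points passed the test, open points did not, and a black tick is the list's median. The 4 chaperone lists have medians from 2.56 to 10.72, and expansins at the foot with a median of -1.97.

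Changes were larger in batch 2 than in batch 1 for many chaperone loci. Of 38 chaperone loci, 17 had a larger change in batch 2 by the test of the difference and 1 a smaller one, where 5.85% and 3.65% of all genes did. For the heat stress factors the counts were 6 and 0 of 22. The cytosolic small heat shock protein list had a median of 5.92 in batch 1, with 9 of 10 loci called, and 9.44 in batch 2, with 10 of 10. The batch 1 value rests on 1 heated library, so the batch difference and that leaf pool cannot be told apart.

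**Figure D3:**
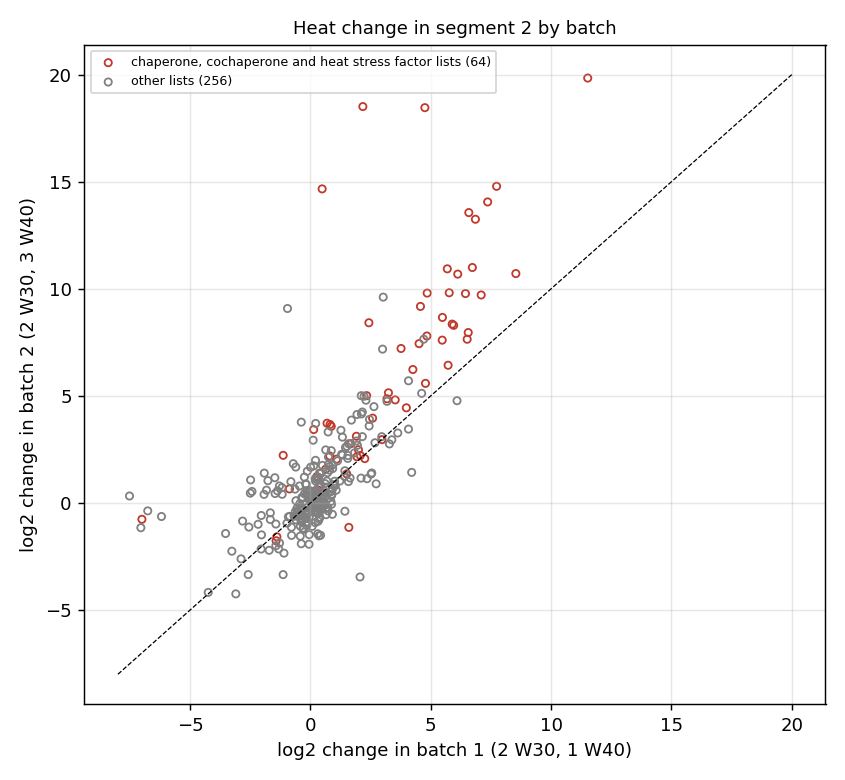
log2 change in batch 1 (x axis, 2 W30 and 1 W40 libraries) against that in batch 2 (y axis, 2 W30 and 3 W40 libraries) for 320 listed loci in segment 2. Red circles are loci of the chaperone, cochaperone and heat stress factor lists, gray circles those of the other lists, and the dashed line marks equal changes. Most red circles lie above the line. Values beyond about 10 involve loci near 0 in W30 and depend on the fit.

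Clock genes set the daily timing of leaf expression, and levels of several parted by batch. Of 13 clock loci, 5 fell, 1 rose and 7 did not pass, with a median of -0.38, where 17.4% of all genes fell and 18.9% rose. Leaving out W40 replicate 1 gave 6 that fell and 4 that rose, with a median of -0.17, and library totals gave 8 and 1. LOC_Os02g40510 stood at 177, 193, 24.6 and 34.6 CPM in W30 and 86.3, 5.66, 6.55 and 5.26 CPM in W40 (log2 change -1.88, SE 0.25, adjusted p = 0.000838). The batch 1 libraries were the highest of each condition, and within each batch W40 was below W30. LOC_Os09g36220 fell without overlap, at 449.9, 546, 185 and 213 CPM in W30 and 184, 120.5, 80.97 and 100.1 CPM in W40 (log2 change -1.14, SE 0.18, adjusted p = 0.00202). LOC_Os01g38530, the locus that rose, stood at 42.5, 38.2, 2.34 and 3.13 CPM in W30 and 43.6, 19.03, 25.1 and 18.2 CPM in W40 (log2 change 2.03, SE 0.55, adjusted p = 0.0194), with a change of 0.11 in batch 1 and 2.93 in batch 2 (adjusted p of the difference 0.00498). LOC_Os01g08700, at 2045, 2001, 813 and 853 CPM in W30 and 1494, 714, 799 and 705 CPM in W40, did not pass the test (adjusted p = 0.195). The call for LOC_Os01g38530 was lost without W30 replicate 3 (adjusted p = 0.111) or 4 (0.127). The part of the batch difference of the clock loci in the other results was not tested.

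Jasmonate acts through JAZ repressors, which are themselves made when the hormone is sensed. Of 11 loci entered for JAZ and jasmonate synthesis, 10 rose and 1 did not pass, with a median of 2.75, and 7 were called in batch 1 alone. Among all genes 18.9% rose, and 6.49% in batch 1 alone. LOC_Os03g28940 stood at 18.9, 21.4, 17.9 and 21.2 CPM in W30 and 157, 129, 152 and 220.0 CPM in W40 (log2 change 3.05, SE 0.196, adjusted p = 3.41e-05). Its changes were 2.96 in batch 1 and 3.09 in batch 2, and the groups did not overlap. LOC_Os10g25290 went from 1.22, 2.05, 0.864 and 0.817 CPM to 10.2, 12.1, 14.5 and 30.6 CPM (log2 change 3.85, SE 0.49, adjusted p = 0.000733). LOC_Os03g08330 stood at 2.91, 0.783, 2.56 and 1.72 CPM in W30 and 31.1, 17.5, 12.6 and 40.4 CPM in W40 (log2 change 3.68, SE 0.496, adjusted p = 0.000922), and LOC_Os07g42370 at 112, 84.9, 62.6 and 59.2 CPM in W30 and 269, 306, 317 and 475 CPM in W40 (log2 change 2.2002, SE 0.28, adjusted p = 0.000692). Of 7 WRKY loci, entered as stress and defence transcription factors, 3 rose and 0 fell, beside 18.9% and 17.4% of all genes. LOC_Os09g25060 stood at 0.0957, 0.416, 0 and 0.0638 CPM in W30 and 6.69, 1.52, 2.94 and 13.7 CPM in W40 (log2 change 6.06, SE 1.06, adjusted p = 0.00308), and with batch-corrected counts its change was 2.78 and did not pass (adjusted p = 0.351).

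Abscisic acid closes stomata and switches on protective proteins under water shortage. Of 8 loci entered for its metabolism, 4 rose and 0 fell, and of 9 entered as its PP2C phosphatases and bZIP factors 6 rose and 2 fell, beside 18.9% and 17.4% of all genes. The metabolism list without W40 replicate 1 gave 4 that rose and 2 that fell of 10, and without W30 replicate 2 it gave 5 and 1 of 10. LOC_Os09g28390 stood at 4.58, 4.78, 16.5 and 15.5 CPM in W30 and 26.8, 39.6, 28.4 and 54.1 CPM in W40 (log2 change 1.77, SE 0.27, adjusted p = 0.00151), LOC_Os04g37619 at 239.7, 445, 549 and 609 CPM in W30 and 699, 1018, 1054 and 978 CPM in W40 (log2 change 0.89, SE 0.21, adjusted p = 0.0101), and LOC_Os02g47510 at 911, 1329, 1663 and 1589.6 CPM in W30 and 1839, 1448, 1389 and 1379 CPM in W40 with an adjusted p of 0.673. LOC_Os01g62760 went from 19.1, 15.4, 38.6 and 38.2 CPM to 51.5, 90.2, 51.4 and 88.2 CPM (log2 change 1.21, SE 0.21, adjusted p = 0.00306), and LOC_Os02g52780 from 7.65, 4.44, 6.84 and 6.18 CPM to 21.5, 35.8, 26.4 and 36.5 CPM (log2 change 2.16, SE 0.22, adjusted p = 0.000243). Of 5 dehydrin and LEA loci, which shield membranes and proteins from drying, 2 rose and 1 fell, against 3 and 1 without W40 replicate 1, and LOC_Os02g44870 stood at 6.83, 5.99, 14.7 and 15.96 CPM in W30 and 79.3, 150.1, 119 and 174 CPM in W40 (log2 change 3.396, SE 0.17, adjusted p = 1.27e-05). Of 7 DREB and stress NAC loci 3 rose and 1 fell, shares set beside the same 18.9% and 17.4%. The counts were 5 and 0 of 8 without W40 replicate 1, and 5 and 1 of 8 without W30 replicate 2. LOC_Os03g60080 stood at 6.76, 5.48, 7.94 and 7.86 CPM in W30 and 7.12, 106, 66.5 and 138 CPM in W40 (log2 change 2.71, SE 0.73, adjusted p = 0.0187), so that W40 replicate 1 lay among the W30 libraries, and the call was lost without W30 replicate 3 (adjusted p = 0.124) or 4 (0.132).

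Aquaporins carry water across the plasma membrane and the vacuole membrane. Of 9 plasma membrane loci, 5 rose and 1 fell, with a median of 1.37, and all 3 tonoplast loci tested rose, with a median of 1.92, where 18.9% of all genes rose and 17.4% fell. In the plasma membrane list 2 fell without W30 replicate 2 and 2 without W40 replicate 1. LOC_Os01g74450 stood at 209, 222, 627 and 541 CPM in W30 and 1381, 4189, 2909 and 5177 CPM in W40 (log2 change 2.76, SE 0.22, adjusted p = 9.01e-05) and LOC_Os03g05290 at 201, 134, 236 and 241 CPM in W30 and 419, 1263, 755 and 1349 CPM in W40 (log2 change 1.92, SE 0.28, adjusted p = 0.00144). In the plasma membrane list, LOC_Os04g47220 stood at 168, 119, 189.8 and 212 CPM in W30 and 424, 1028, 737 and 1032 CPM in W40 (log2 change 1.99, SE 0.22, adjusted p = 0.000389) and LOC_Os07g26630 at 0.0239, 0.0978, 0.261 and 0.2297 CPM in W30 and 4.23, 6.397, 4.54 and 9.39 CPM in W40 (log2 change 5.18, SE 0.42, adjusted p = 0.000105). The tonoplast counts were 3 of 3 in each batch alone.

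Ascorbate peroxidases, catalases and superoxide dismutases clear reactive oxygen. Of 17 such loci, 6 rose, 1 fell and 10 did not pass, with a median of 0.29, beside 18.9% and 17.4% of all genes. Without W30 replicate 2 the counts were 5 and 2, and without W40 replicate 1 they were 6 and 2. LOC_Os07g49400 stood at 419, 305, 348 and 327 CPM in W30 and 1401, 2251, 1957 and 2330.3 CPM in W40 (log2 change 2.43, SE 0.22, adjusted p = 0.000141), and LOC_Os03g17690 at 153, 166, 189.8 and 147 CPM in W30 and 372, 336, 315 and 375 CPM in W40 (log2 change 1.09, SE 0.15, adjusted p = 0.000873). LOC_Os02g34810, at 1964, 1392, 1505 and 1568 CPM in W30 and 1818, 1908, 1724 and 1644 CPM in W40, did not pass the test (adjusted p = 0.472).

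**Figure D4:**
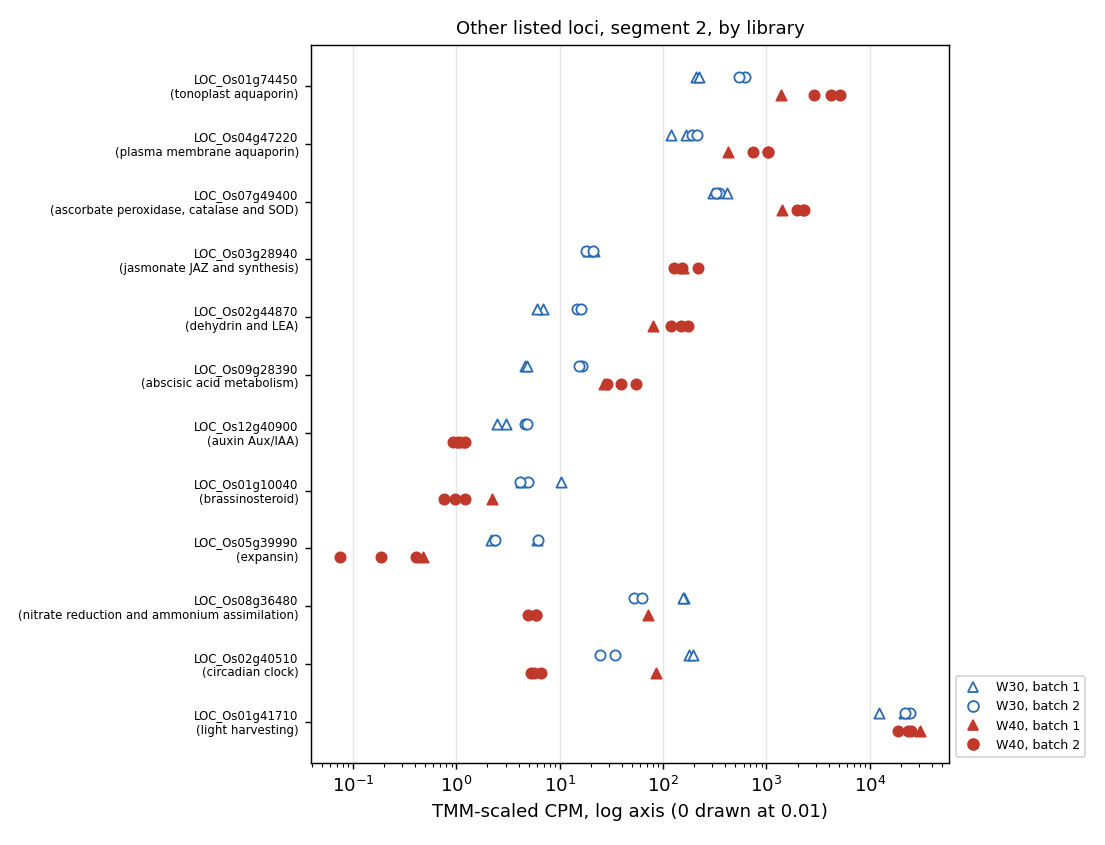
TMM-scaled CPM (x axis, log scale) of 12 listed loci outside the chaperone lists in each segment 2 library, with the points as in the plot of chaperone loci. The loci from LOC_Os01g74450 down to LOC_Os09g28390 lie higher in W40, LOC_Os12g40900, LOC_Os01g10040 and LOC_Os05g39990 lower, and LOC_Os01g41710 shows overlapping groups.

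Among all genes 17.4% fell and 18.9% rose, and the counts of growth-related lists are set beside these. Expansins loosen the cell wall as cells enlarge, and of 6 such loci 3 fell and 0 rose, with a median of -1.97. LOC_Os05g39990 stood at 5.99, 2.15, 6.196 and 2.37 CPM in W30 and 0.473, 0.403, 0.186 and 0.0757 CPM in W40 (log2 change -3.84, SE 0.59, adjusted p = 0.00169), and LOC_Os01g60770 at 5.76, 1.15, 4.74 and 1.15 CPM in W30 and 0.575, 0.305, 0.174 and 0.391 CPM in W40 (log2 change -3.07, SE 0.63, adjusted p = 0.00609). These are low levels even at 30 °C, and W30 replicates 1 and 3 were the highest. Within batch 1 alone 0 expansin loci passed edgeR's test, with 5 at an unadjusted p under 0.05. Of 5 cell division loci 1 fell, LOC_Os11g29380, at 3.72, 6.04, 5.27 and 5.23 CPM in W30 and 2.82, 2.796, 1.98 and 2.41 CPM in W40 (log2 change -1.01, SE 0.21, adjusted p = 0.00713).

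Aux/IAA proteins repress auxin signalling and are induced by auxin. Of 11 such loci 5 fell and 0 rose, with a median of -0.71. LOC_Os12g40900 stood at 2.49, 3.01, 4.62 and 4.81 CPM in W30 and 1.099, 1.22, 1.05 and 0.9205 CPM in W40 (log2 change -1.86, SE 0.23, adjusted p = 0.000673), LOC_Os02g57250 at 39.1, 36.5, 46.6 and 51.6 CPM in W30 and 30.7, 22.7, 22.3 and 20.3 CPM in W40 (log2 change -0.86, SE 0.17, adjusted p = 0.0059), and LOC_Os01g08320 at 6.74, 8.91, 30.03 and 36.7 CPM in W30 and 4.31, 23.4, 21.02 and 20.4 CPM in W40 (log2 change -0.71, SE 0.14, adjusted p = 0.00592). Levels of LOC_Os01g08320 parted by batch, and within each batch every W40 library was below every W30 library. Brassinosteroids promote cell enlargement, and of 7 loci entered for their synthesis and signalling 4 fell and 1 rose. LOC_Os01g10040 stood at 10.3, 4.22, 4.96 and 4.13 CPM in W30 and 2.21, 0.968, 0.755 and 1.22 CPM in W40 (log2 change -2.03, SE 0.31, adjusted p = 0.00165).

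Cellulose synthases lay down wall cellulose, and the loci of the primary wall gave 1 of 6 that rose and 0 that fell. That locus, LOC_Os03g59340, stood at 16.02, 10.6, 1.34 and 2.44 CPM in W30 and 17.3, 4.61, 4.64 and 5.56 CPM in W40 (log2 change 1.03, SE 0.29, adjusted p = 0.0222), its groups overlapped, and batch 1 libraries were higher in both conditions. Its call was lost without W30 replicate 3 (adjusted p = 0.0703) or 4 (0.0647) and without W40 replicate 4 (0.0507). LOC_Os07g24190, at 45.3, 32.1, 12.7 and 9.52 CPM in W30 and 17.04, 19.8, 19.1 and 15.8 CPM in W40, did not pass the test (adjusted p = 0.862), and its changes of -1.18 in batch 1 and 0.71 in batch 2 differed (adjusted p = 0.0151). In batch 2 alone 5 of the 6 loci rose, where 24.8% of all genes did, and in batch 1 alone 1 fell and 0 rose, where 3.25% and 6.49% of all genes did. Leaving out W40 replicate 1 also gave 5 of the 6. Of 14 phenylpropanoid and lignin loci 3 rose and 4 fell, beside 18.9% and 17.4% of all genes. Without W40 replicate 1, as in batch 2 alone, 7 rose and 3 fell, and in batch 1 alone 0 rose and 2 fell. LOC_Os08g34280 stood at 4.101, 1.64, 2.02 and 2.86 CPM in W30 and 6.91, 33.1, 16.6 and 27.1 CPM in W40 (log2 change 2.7005, SE 0.52, adjusted p = 0.00488) and LOC_Os10g36848 at 1.75, 1.55, 2.44 and 2.71 CPM in W30 and 0.676, 0.566, 1.01 and 0.5296 CPM in W40 (log2 change -1.67, SE 0.29, adjusted p = 0.00323).

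Photosynthesis loci were not called with all 8 libraries, but some were without either library that stood apart. Of 14 light harvesting loci, which catch light at the photosystems, and 10 Rubisco and Calvin cycle loci, which fix carbon, 0 and 0 passed edgeR's test at an adjusted p of 0.05, and 0 and 2 were under an unadjusted p of 0.05. Their medians were 0.08 and -0.19, and the first turned to -0.15 when counts were scaled to library totals. DESeq2 called 0 of the first and 2 of the second, and scaling to library totals 1 and 4, all lower. Without W30 replicate 2 the calls were 1 and 4, and without W40 replicate 1 they were 2 and 2, as in batch 2 alone, again all lower. LOC_Os01g41710 stood at 12320.0, 21279, 24578 and 21778 CPM in W30 and 30833, 24796, 18674 and 23161 CPM in W40 (log2 change 0.28, SE 0.27, adjusted p = 0.44). LOC_Os12g17600 stood at 21925, 10474, 16267 and 19544 CPM in W30 and 15639, 7593, 5378 and 6264 CPM in W40 (log2 change -0.95, SE 0.34, adjusted p = 0.0557). In LOC_Os12g17600 W40 replicate 1 lay with the W30 libraries and the other W40 libraries lay below all of them, and it passed the test without W40 replicate 1 or without W30 replicate 2. Of 11 chlorophyll synthesis loci 2 rose and 2 fell, close to the 18.9% and 17.4% of all genes. Without W40 replicate 1, in batch 2 alone and with library totals 0 rose and 2 fell, and without W30 replicate 2 the counts were 3 and 1. LOC_Os10g35370 stood at 522, 1032, 1699.5 and 1656 CPM in W30 and 1459, 2779.9, 2426 and 2564 CPM in W40 (log2 change 0.73, SE 0.23, adjusted p = 0.033). That call was lost without any 1 of W30 replicates 3 and 4 or any 1 W40 library, with adjusted p from 0.0652 to 0.102.

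Calls in the starch and nitrogen lists were decreases with all 8 libraries, where 17.4% of all genes fell and 18.9% rose. Of 8 starch synthesis loci 3 fell, LOC_Os07g22930 at 91.3, 83.8, 477 and 465 CPM in W30 and 66.9, 270.2, 238 and 264 CPM in W40 (log2 change -0.696, SE 0.14, adjusted p = 0.00636) and LOC_Os03g52460 at 362, 241, 281 and 324 CPM in W30 and 231, 171, 186 and 169.8 CPM in W40 (log2 change -0.64, SE 0.17, adjusted p = 0.0186) among them, the second of which was lost without W30 replicate 3 or 4 or W40 replicate 2 or 4 (adjusted p from 0.0583 to 0.0938). Of 9 loci entered for nitrate reduction and ammonium assimilation 4 fell, with a median of -0.46. LOC_Os08g36480 stood at 160.3, 154, 52.2 and 61.99 CPM in W30 and 71.6, 5.93, 4.97 and 5.93 CPM in W40 (log2 change -2.52, SE 0.39, adjusted p = 0.00174), and its change was -1.14 in batch 1 and -3.35 in batch 2 (adjusted p of the difference 0.00339). LOC_Os03g12290 stood at 16.5, 32.3, 77.1 and 77.96 CPM in W30 and 18.8, 22.3, 21.6 and 18.2 CPM in W40 (log2 change -1.35, SE 0.31, adjusted p = 0.0102), whereas LOC_Os04g56400, at 2292, 1479, 2838 and 2472 CPM in W30 and 1923, 2867, 2541 and 2659.9 CPM in W40, did not pass (adjusted p = 0.937). Of 11 sucrose loci 3 rose and 1 fell, against 6 and 1 without W40 replicate 1, 2 and 0 in batch 1 alone and 1 and 2 in the fit of 16 libraries, with LOC_Os02g58080 at 10.4, 12.2, 13.3 and 13.5 CPM in W30 and 17.3, 23.7, 25.8 and 25.5 CPM in W40 (log2 change 0.799, SE 0.12, adjusted p = 0.00169). Of 11 trehalose, raffinose, proline and betaine loci 5 rose and 2 fell, and LOC_Os03g20120 stood at 3.23, 0.905, 4.94 and 9.08 CPM in W30 and 21.6, 54.7, 44.1 and 63.03 CPM in W40 (log2 change 3.1002, SE 0.38, adjusted p = 0.00057).

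Several of these calls ended in other fits, and those named here are not all of them. With the replicate number as a block in place of batch the calls ended for LOC_Os01g53220 (adjusted p = 0.0657), LOC_Os01g38530 (0.298), LOC_Os01g08320 (0.752), LOC_Os03g59340 (0.504), LOC_Os07g22930 (0.786) and LOC_Os03g12290 (0.1). With no batch term the calls ended for LOC_Os02g40510 (adjusted p = 0.213), LOC_Os01g38530 (0.826), LOC_Os01g53220 (0.264), LOC_Os01g08320 (0.8), LOC_Os03g59340 (0.954), LOC_Os07g22930 (0.683), LOC_Os08g36480 (0.118), LOC_Os10g35370 (0.129) and LOC_Os03g12290 (0.0611). In the fit of all 16 segment 2 libraries, which adds the drought leaves, the calls of LOC_Os04g36750 (0.0531), LOC_Os01g62760 (0.126), LOC_Os03g60080 (0.121), LOC_Os03g59340 (0.197), LOC_Os10g35370 (0.079), LOC_Os07g22930 (0.145), LOC_Os03g52460 (0.0818) and LOC_Os03g12290 (0.0643) ended. With batch-corrected counts the calls of LOC_Os09g25060 (0.351), LOC_Os03g60080 (0.0998), LOC_Os11g29380 (0.0694), LOC_Os03g59340 (0.333), LOC_Os10g35370 (0.0776) and LOC_Os07g22930 (0.0556) ended. Batch 1 alone, with 1 heated library, gave smaller changes for some loci. They were -0.30 for LOC_Os02g57250, -0.38 for LOC_Os03g12290, 0.22 for LOC_Os03g60080, 0.38 for LOC_Os03g59340 and -0.39 for LOC_Os07g22930. LOC_Os12g17910 changed by 0.80 there, LOC_Os08g34280 by 1.27 and LOC_Os10g36848 by -1.28. LOC_Os01g10040 changed by -1.72, LOC_Os01g60770 by -2.59 and LOC_Os05g39990 by -3.10.

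The heat change at the base was then set against that in segments 3 to 6 of the same leaf pools, in a fit to 40 well-watered libraries with the pool as a block and CPM scaled over those libraries. Of 23080 genes tested, 134 (0.581%) differed, with 79 (0.342%) more positive and 55 (0.238%) more negative at the base. Against segment 6, nearest the tip, 452 genes (1.96%) differed, 239 (1.04%) more positive and 213 (0.923%) more negative. Against the neighbouring segment 3, 0 genes (0%) passed edgeR's test, with 874 at an unadjusted p under 0.05. The count against segments 3 to 6 was 744 without W40 replicate 1 and 18 without W40 replicate 4, and it was 59 without W30 replicate 1, 40 without W30 replicate 4, 39 without W40 replicate 2 and 36 without W40 replicate 3. The count against segment 6 was 1658 without W40 replicate 1, 258 without W30 replicate 1, 188 without W40 replicate 2, 117 without W40 replicate 3 and 130 without W40 replicate 4. With batch in place of the pool 0 genes differed in any of these tests.

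The chaperone response at the base was not distinguished from that of the other segments in most loci. Of 39 chaperone loci tested, 2 differed from segments 3 to 6 by edgeR's test, both more negative at the base. At an unadjusted p under 0.05 there were 10, where 2614 of all 23080 genes were. Against segment 6, 2 chaperone loci were called more positive and 0 more negative, beside 1.04% and 0.923% of all genes, with 9 at an unadjusted p under 0.05. Of 23 heat stress factor loci 0 differed from segments 3 to 6 by edgeR's test, with 3 at an unadjusted p under 0.05. Against segment 6, 1 of these 23 was called more positive at the base and 0 more negative, with 6 at an unadjusted p under 0.05. The median difference of mean log2 level for the cytosolic small heat shock protein list was 8.17 in segment 2, 8.15 in segment 3, 8.25 in segment 4, 8.32 in segment 5 and 8.34 in segment 6, with 0.1 CPM added to each value. From segment 2 to segment 6 it was 9.16, 9.48, 10.25, 9.90 and 9.60 for the organelle list. For HSP90 and HSP100 it was 4.21, 4.23, 3.51, 3.84 and 3.82, and for HSP70 2.66, 2.70, 2.73, 2.72 and 2.66. Both loci called against segments 3 to 6 rest on W30 replicate 2. LOC_Os03g14180 gave a difference of -4.98, SE 0.79, adjusted p = 0.00234, with segment 2 levels of 0, 3.43, 0.0431 and 0 CPM in W30 and 2.36, 485, 791 and 572 CPM in W40, and without W30 replicate 2 the difference was -0.99 (adjusted p = 0.765). LOC_Os04g01740 gave -4.01, SE 0.85, adjusted p = 0.0212, with 0, 9.56, 0.0215 and 0 CPM in W30 and 127, 4109, 4829 and 4711 CPM in W40, and without that library 2.54 (adjusted p = 0.596). The second call was also lost without W30 replicate 1 or W40 replicate 2, 3 or 4 (adjusted p from 0.0602 to 0.122).

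LOC_Os05g43040, on no list, had W30 levels that fell from base to tip and a W40 mean that was higher in segment 6 than in segment 2. W40 replicate 1 fell too, from 37.6 CPM in segment 2 to 20.8 CPM in segment 6. W40 replicates 2, 3 and 4 went from 74.9, 83.0 and 107.8 CPM to 138.7, 144.8 and 182.9 CPM. The W30 level of this locus was 15.8 ± 5.13 CPM (SD, n = 4) in segment 2 and 3.98 ± 2.22 in segment 6, and its W40 level 75.8 ± 29.1 and 122 ± 70.1. The heat change at the base was smaller, with a log2 difference of -1.48, SE 0.22, adjusted p = 0.00184, and against segment 6 of -2.56, SE 0.29, adjusted p = 1.02e-05. LOC_Os03g11210, on no list, had a W30 level of 4.75 ± 0.948 CPM in segment 2 and 5.74 ± 3.02 in segment 6, and a W40 level of 10.04 ± 3.58 and 46.2 ± 24.6 (difference -1.48, SE 0.25, adjusted p = 0.0028). This call was lost without W40 replicate 4 (adjusted p = 0.0564), and that of LOC_Os05g43040 held whichever pool was left out.

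The primary wall locus LOC_Os03g59340 had a W30 level of 7.58 ± 6.77 CPM in segment 2 and 3.92 ± 4.001 in segment 6, and a W40 level of 7.94 ± 6.08 and 12.6 ± 3.94. The difference in heat change was -1.07, SE 0.21, adjusted p = 0.0117, and against segment 6 it was -1.95, SE 0.26, adjusted p = 9.47e-05. Batch 1 libraries of this locus lay above those of batch 2, which widens the SD, while the test compares segments within a pool. The Aux/IAA locus LOC_Os02g57250, which fell in segment 2, had 38.2, 36.5, 49.95 and 54.6 CPM in W30 and 30.2, 22.6, 22.1 and 20.2 CPM in W40 there, and 34.2, 33.3, 31.2 and 31.9 and 38.4, 29.2, 22.3 and 24.03 CPM in segment 6 (difference -0.47, SE 0.103, adjusted p = 0.0247). In segment 6 its groups overlapped through W40 replicate 1, and W40 replicates 2, 3 and 4 lay below every W30 library. The call of LOC_Os03g59340 was lost without W30 replicate 4 or W40 replicate 2, 3 or 4 (adjusted p from 0.0624 to 0.0968), and that of LOC_Os02g57250 without W30 replicate 3 or 4 or W40 replicate 2 or 4 (0.0675 to 0.156).

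Of the other listed loci, the plasma membrane aquaporin LOC_Os09g36930 stood in segment 2 at 2024.5, 1859, 788 and 741 CPM in W30 and 1447, 348, 271 and 389 CPM in W40, a difference from segments 3 to 6 of -0.79, SE 0.18, adjusted p = 0.0333. The phenylpropanoid locus LOC_Os02g41630 stood at 42.6, 15.6, 16.3 and 19.002 CPM and 9.18, 12.6, 8.104 and 8.22 CPM, a difference of -1.27, SE 0.29, adjusted p = 0.0358, which was -1.09 (adjusted p = 0.0945) in batch 2 alone. The call of LOC_Os09g36930 was lost when any pool other than W40 replicate 1 was left out (adjusted p up to 0.223), and that of LOC_Os02g41630 when any pool other than W40 replicates 1 and 2 was (up to 0.25).

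Other loci were more positive at the base. The abscisic acid metabolism locus LOC_Os09g28390 had a W30 level that was lower at the base, 10.8 ± 7.18 CPM in segment 2 and 23.3 ± 14.2 in segment 6, and W40 levels of 36.99 ± 12.7 and 31.5 ± 3.83. The difference was 0.95, SE 0.15, adjusted p = 0.00185 against segments 3 to 6 and 1.37, SE 0.19, adjusted p = 0.00012 against segment 6. LOC_Os06g47910, on no list, had 0.444, 0.269, 2.49 and 1.72 CPM in W30 and 29.8, 189, 133 and 163 CPM in W40 in segment 2, and 1.02, 0.456, 6.22 and 3.904 and 28.1, 113, 80.6 and 60.7 CPM in segment 6 (difference 1.24, SE 0.23, adjusted p = 0.00768). LOC_Os01g13120, on no list, had 19.96, 19.9, 41.5 and 35.4 CPM in W30 and 13.3, 18.6, 13.3 and 13.9 CPM in W40 in segment 2 (difference 1.04, SE 0.24, adjusted p = 0.0378), where it fell less than in the other segments. The call of LOC_Os06g47910 was lost without W30 replicate 4 or W40 replicate 4 (adjusted p = 0.0744 and 0.0789), and that of LOC_Os01g13120 when any pool other than W40 replicate 1 was left out (0.0737 to 0.253). The call of LOC_Os09g28390 held whichever pool was left out.

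**Figure D5:**
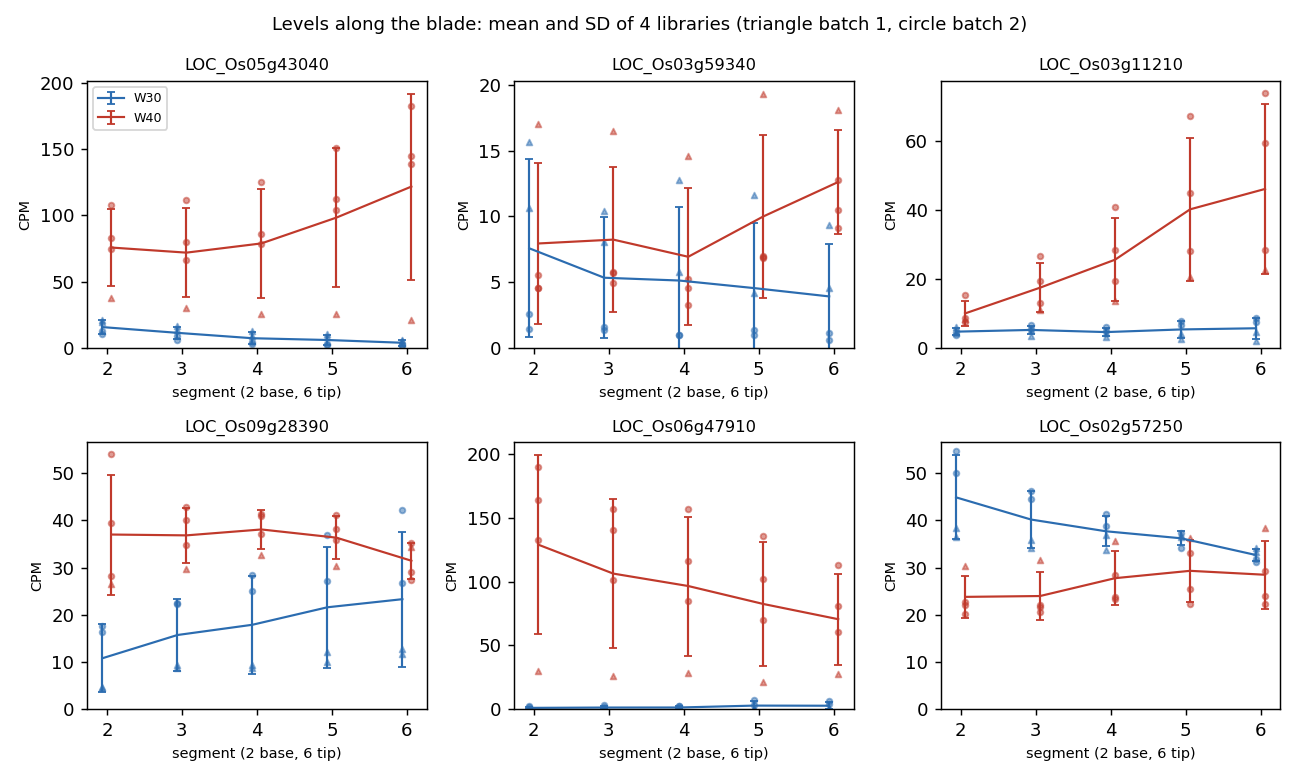
CPM (y axis) along the blade (x axis, segment 2 at the base to segment 6 nearest the tip) of 6 loci with a different heat change at the base. Lines join the means of 4 libraries, bars are SD cut at 0, blue is W30, red W40, triangles batch 1 and circles batch 2. In LOC_Os05g43040 the blue line falls towards the tip, and the red line rises after a dip at segment 3. The red triangles of that locus, W40 replicate 1, fall towards the tip. In LOC_Os02g57250 the gap between the lines narrows towards the tip.

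Before heat, the base differed from the rest of the blade in 3876 of 23080 genes (16.8%), 2064 higher (8.94%) and 1812 lower (7.85%), and in 2534 without W30 replicate 4. Among the lists, 7 of 11 Aux/IAA loci, 4 of 6 primary wall cellulose synthase loci, 3 of 7 expansin loci and 4 of 8 starch synthesis loci were higher at the base and none of these lists held a lower one. The WRKY list had 4 of 8 loci lower, and the unfolded protein response list 5 of 12. Base genes for a comparison with heat were taken from unheated drought leaves (D30, soil at 1.5 g/g, 12 days of growth), which share no library with W30 or W40. There, 3148 of 22050 genes (14.3%) differed between segment 2 and segments 3 to 6, with 1683 (7.63%) higher and 1465 (6.64%) lower at the base.

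Of the genes called higher at the base of drought leaves, more fell than rose after heat. Of 1683 such genes 1608 were tested for heat in segment 2, of which 258 (16%) rose and 422 (26.2%) fell, with a median change of -0.21, where 18.9% of all genes rose and 17.4% fell. Of the 1434 tested genes that were lower at the base, 243 (16.9%) rose and 281 (19.6%) fell, with a median of -0.08. The higher genes made up 11.7% of all genes that fell and 6.61% of those that rose, and were 1608 of the 20704 genes tested. These counts describe the genes and carry no test, and leaf age and soil water differed between the leaves used to choose them and the leaves heated.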

How the data were processed

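Poly(A) RNA was sequenced as 100 bp paired-end reads. Per the submitters' processing notes, featureCounts 2.0.6, HISAT2 2.2.1 and Picard 3.1.0 were used. No source used here gives the genome build. Deposited by the authors were raw counts per gene, batch-corrected counts, treated here as estimated counts although whole in the file, and batch-corrected FPKM values, per the file headers, with the method of correction not given. Raw counts were used for all results, the corrected counts only in an alternative and FPKM not at all. Of raw counts from 1 to 20, 76.6% were even, so both reads of a pair may have been counted, and halved counts were tried. Nothing in the labels says that replicates came from separate sowings, so p-values measure the spread between these leaf pools.

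Tests used edgeR 4.0.16 in R 4.3.3 with TMM scaling, filterByExpr (minimum count 10, total 15), the quasi-likelihood F test, batch as a term and Benjamini-Hochberg adjustment over all genes tested, with an adjusted p under 0.05 as threshold. DESeq2 1.42.0 was an alternative, with other scalings, no filter, no batch term, single batches, batch-corrected counts and each library left out. CPM are TMM-scaled. SE was taken as the size of the log2 change over the root of the F statistic and is approximate near 0. Tests between segments fitted the leaf pool as a block in 40 libraries, since segments of a pool come from the same leaves. The median correlation of their deviations was 0.58, against -0.37 for other pools. Deviations were taken from the mean of each group, which by itself makes values for other pools negative, and those pairs mix batches. Libraries of one group differed far beyond sampling noise (chi-square over its degrees of freedom at least 37.8), so none looked like another library sequenced again. That value cannot show whether libraries shared RNA. The procedure was tested on simulated counts. These had the same dispersion for all genes and no batch or pool effect, so they do not test the batch term or the pool block.

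The members and the lists were chosen with earlier results of these data known, and lists are given by counts and medians with no test. Loci named per list were up to 5 that passed with the smallest adjusted p and up to 2 that did not with the highest CPM, or any of a list of 6 or fewer, and up to 3 in segment tests. Outside the lists up to 2 each way were named, by fold among calls whose groups were apart and whose mean reached 5 CPM. 359 loci were entered in 42 lists, of which 357 were in the table and 320 were tested. The comparison by batch and the choice of base genes in drought leaves were added after seeing the data.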

Additional observations from a re-analysis of the deposited data

Results flagged for a closer look

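Among 168 groups of 4 libraries, 1 per condition for each of 84 named loci, 24 held a library at one end that stood apart from the other 3 by Dixon's criterion. In independent groups of like libraries chance alone meets it in about 1 group in 20. The loci here share the same libraries, and each W40 group holds 1 library of batch 1, so the 24 cannot be set against that rate. W30 replicate 2 was the highest library of its group for LOC_Os01g08860 (16.4 CPM), LOC_Os02g52150 (24.8 CPM), LOC_Os03g14180 (3.44 CPM), LOC_Os04g36750 (1.1 CPM), LOC_Os08g39140 (103 CPM), LOC_Os12g32986 (74.2 CPM), LOC_Os06g39240 (1.2 CPM) and LOC_Os04g28420 (19 CPM). W40 replicate 1 was the lowest library of its group for LOC_Os01g04380 (34.8 CPM), LOC_Os12g32986 (361 CPM), LOC_Os11g47760 (739 CPM), LOC_Os06g46900 (47 CPM), LOC_Os04g28420 (1571 CPM), LOC_Os01g08320 (4.31 CPM) and LOC_Os07g22930 (66.9 CPM). W40 replicate 1 was the highest library of its group for LOC_Os01g53220 (11 CPM), LOC_Os02g40510 (86.3 CPM), LOC_Os01g08700 (1494 CPM), LOC_Os02g47510 (1839 CPM), LOC_Os03g59340 (17.3 CPM), LOC_Os08g36480 (71.6 CPM) and LOC_Os08g26710 (4.83 CPM). W30 replicate 1 was the highest library of its group for LOC_Os01g10040 (10.3 CPM). W40 replicate 4 was the highest library of its group for LOC_Os04g23550 (34.6 CPM). The loci with a high W30 replicate 2 are all on chaperone or coactivator lists. W40 replicate 1, the only heated library of batch 1, accounted for 14 of the 24.

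The heat change differed between segments of the blade by the test of the difference itself, with the leaf pool as a block. The log2 change in segment 2 minus that in segments 3 to 6 passed for LOC_Os09g28390 (0.95), LOC_Os03g59340 (-1.07), LOC_Os02g41630 (-1.27), LOC_Os09g36930 (-0.79), LOC_Os02g57250 (-0.47), LOC_Os03g14180 (-4.98), LOC_Os04g01740 (-4.01), LOC_Os06g47910 (1.24), LOC_Os01g13120 (1.04), LOC_Os03g11210 (-1.48) and LOC_Os05g43040 (-1.48). The change minus that in segment 6 passed for LOC_Os05g43040 (-2.56), LOC_Os03g59340 (-1.95) and LOC_Os09g28390 (1.37).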

How the results depend on the processing

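Genes called for heat in segment 2 numbered 7513 and lay within 1.5 times of that under DESeq2 size factors (7492), library totals (8112), no filter (7330), halved counts (7516), batch-corrected counts (6369), a fit of 16 libraries (6984), batch 2 alone (9824) and DESeq2 (8868). There were 4680 with no batch term and 2017 in batch 1 alone, and leaving out 1 library gave 3934 to 9900. Against segments 3 to 6 the 134 calls became 595 in batch 2 alone and 18 to 744 with 1 pool left out. Against segment 6 the 452 calls became 1289 in batch 2 alone and 117 to 1658 with 1 pool left out. Against segment 3 there were 0 under every alternative run. The 3876 calls of base level at 30 °C ranged from 2534 to 4289 with 1 pool left out. Of 84 loci named for heat, 56 kept their side of the threshold in all 19 alternatives and 28 did not in at least 1. Some of the 56 that did not pass turned sign, among them LOC_Os01g41710 (from -0.06 to 0.88) and LOC_Os02g47510 (from -0.21 to 0.72). Among the 28, signs turned in batch 1 alone for LOC_Os12g38180 (1.59, against -0.13) and LOC_Os07g24190 (-1.18, against 0.09). For LOC_Os04g01740 against segments 3 to 6 the sign turned in batch 2 alone (2.24) and without W30 replicate 2 (2.54). Its values with 1 pool left out ran from -6.59 to 2.54. Scaling to library totals turned the median of light harvesting loci to -0.15. The cause of these changes was not tested.

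The labels give W30 and W40 the same replicate numbers, and the numbers were not taken as pairs. Deviations of same-numbered libraries correlated at 0.57, 0.21 and 0.33 for numbers 1, 3 and 4 and at -0.39 for number 2. All correlations were positive within a batch and negative between batches, and only number 2 is split between batches. W30 replicate 3 correlated at 0.46 with W40 replicate 2. These values therefore cannot tell pairing by number from batch. A replicate block in place of batch gave 4902 calls for heat. In the tests between segments, batch in place of the pool (no replicate block) gave 0 calls against segments 3 to 6, 0 against segment 6 and 1008 for base level at 30 °C.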
